A study of Mus musculus with 20 samples.

Results

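The 10 genes of cell adhesion described here were measured in BV-2 microglia, a mouse cell line: the integrin alpha chains Itgal, Itgax, Itga4, Itga5 and Itgav, the integrin beta chains Itgb2 and Itgb1, the immunoglobulin-type ligands Icam1 and Vcam1, and the hyaluronan receptor Cd44. They were chosen by name, with earlier results of these data known. Shares of all genes printed beside theirs are therefore a description and no independent test. Their rows were found by matching the Ensembl identifiers of the count table to gene symbols, and all 10 were found among 55487 rows. RNA was sequenced from 20 cultures in 4 groups of 5, which were young (control) and aged BV-2 microglia, each untreated or exposed to 100 ng/ml lipopolysaccharide (LPS) for 6 hours. All cultures share the wild-type genotype of the label and the same medium with foetal bovine serum. Aged cells are BV-2 microglia kept in long-term cultivation, and young cells are low-passage BV-2 microglia, so that age here is time in culture of a single cell line. Frozen aliquots of both were thawed together. The long-term culture was begun at a later passage than that of the control cells. How many separate long-term cultures gave the aged cells is not given in the sources used here. The labels number the cultures of each group 1 to 5 and give that number as the batch, so that every batch has 1 culture from each group.

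Integrins are pairs of an alpha and a beta chain that span the membrane and couple the matrix or a neighbouring cell to the actin cytoskeleton. On leukocytes the beta2 chain (Itgb2) pairs with Itgal to form LFA-1, a receptor for ICAM family ligands, with Itgam to form complement receptor CR3, and with Itgax to form CR4. The beta1 chain (Itgb1) pairs with Itga4 to bind VCAM1 and fibronectin and with Itga5 to bind fibronectin, and Itgav pairs with several beta chains to bind ligands such as vitronectin and osteopontin. Icam1 and Vcam1 are known as genes of inflamed endothelium and activated myeloid cells, and Cd44 is a widely used marker of leukocyte activation.

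Libraries held 11371508 to 16829292 counts, and values are CPM, counts scaled to a common library size by TMM, a normalization that sets the bulk of genes equal between libraries. Detection was set to start at 3 counts, a floor of 0.165 to 0.296 CPM. Of 15 microglia and macrophage markers, 11 or 12 exceeded 1 CPM in every library of a group, whereas Sall1 had no count in any library and Cx3cr1, P2ry12 and Fcrls averaged at most 1.29 CPM in any group. Neuronal, astrocyte, oligodendrocyte, fibroblast and pericyte, and lymphocyte markers summed to at most 1.78 CPM per library. Of 6 endothelial markers, Kdr and Flt1 were above 1 CPM in every library, with group means of 75 to 102 and 320 to 367 CPM. Pecam1 and Cdh5 averaged at most 0.133 CPM in any group, and Cldn5 and Tek had no count in any library. In bulk RNA, fewer cells of a type and less RNA per cell cannot be told apart. The study calls the cultures of a group independent replicates, and p-values measure the spread between these libraries.

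Compared per length, as reads scaled by library size and by kilobases of merged exons (RPKM), Itgb1 was the most abundant of the 10 transcripts in every group, at 118 ± 7.42 RPKM (mean ± SD, n = 5) in young untreated and 111 ± 8.57 RPKM in aged untreated cells. In young untreated cells it was followed by Itga4 (38 ± 3.24), Itgav (37 ± 5), Cd44 (36.9 ± 5.99), Itgb2 (23.4 ± 6.62), Itgal (21.4 ± 3.74), Itga5 (21.3 ± 3.23), Itgax (19.1 ± 8.2) and Icam1 (15.1 ± 0.803 RPKM). Itgb1 was apart from Itga4, and Icam1 was apart from Vcam1, which had no count. All other neighbours in that order overlapped between libraries. After LPS, Itga5 and Icam1 stood at ranks 2 and 3 in both ages, at 170.4 ± 22.9 and 112 ± 32.2 RPKM in young and 114 ± 16.9 and 73.2 ± 22.5 RPKM in aged cells. Icam1 overlapped there with Itga5 above it and with Cd44 at rank 4, at 106 ± 28.8 and 72.5 ± 20.9 RPKM. In young cells the libraries with the lowest Itgb1 and the highest Itga5 then met, and in aged cells Itgb1 was still apart from Itga5. The order below Itgb1 depends on the length used. The longest transcript of Icam1 has 2535 bases beside 4360 of merged exons, and that of Itgb2 has 2970 beside 3052.

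**Figure D1:**
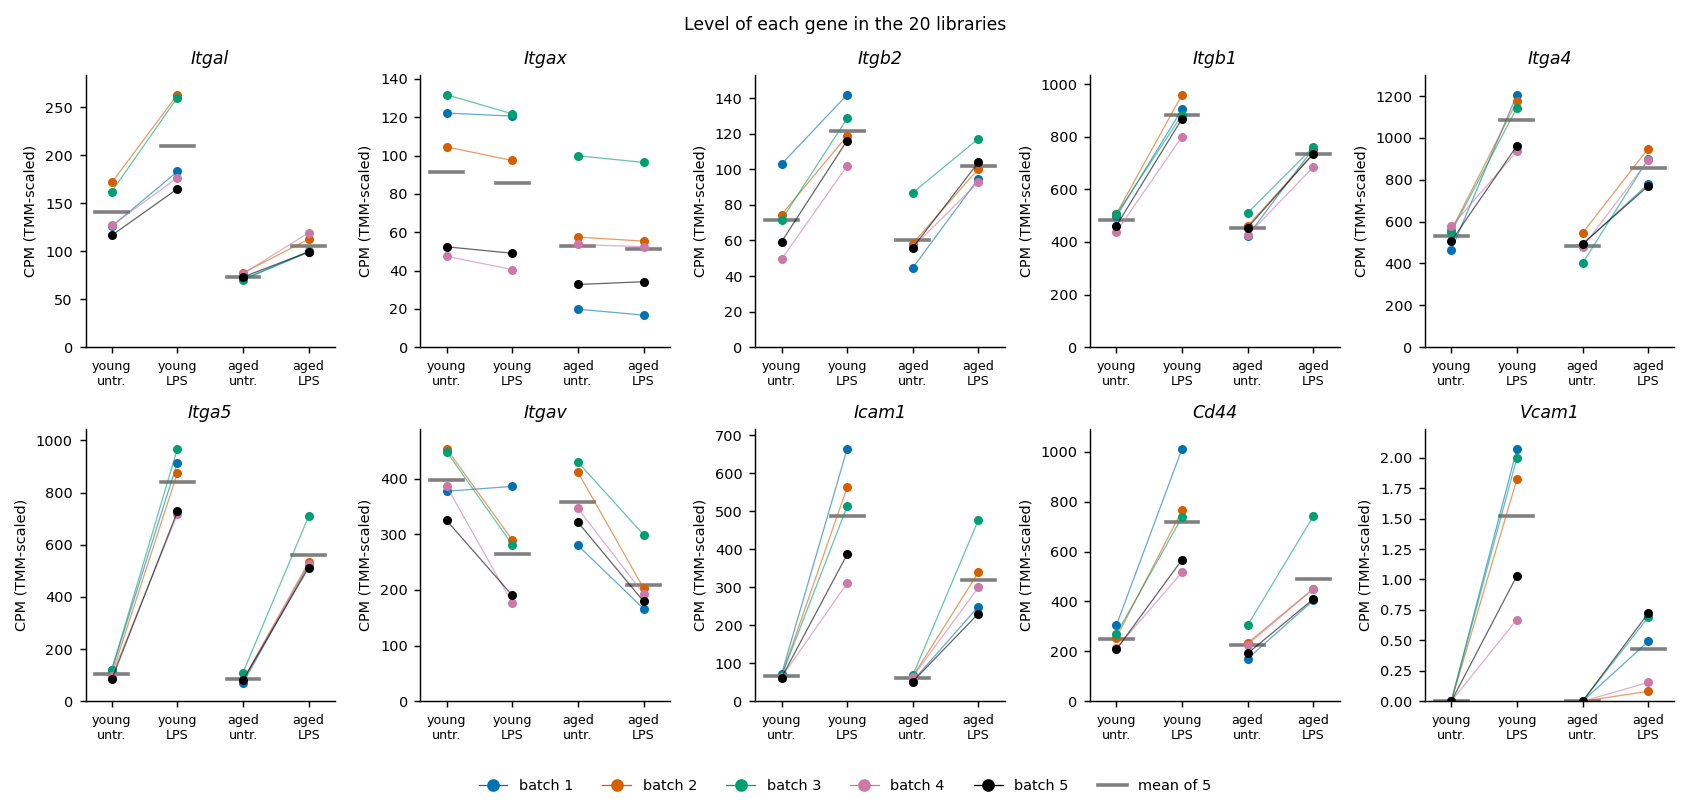
TMM-scaled CPM (vertical axis, from 0) of each of the 10 genes in the 20 libraries, by group, with colours for the 5 batches, lines joining the untreated and LPS-treated culture of an age and batch, and grey bars for the mean of 5. Icam1 and Itga5 are far above the untreated libraries after LPS in both ages, Itgav is lower in 9 of 10 pairs, Itgal is lower in all aged than in all young libraries of a treatment, and the lines of Itgax are nearly flat while its libraries lie far apart.

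How young and aged cells respond to LPS was the first question of the design. In young cells 7 of the 9 genes that could be tested rose (31.2% of the 12799 genes tested were called higher), 1 fell (33.5% were called lower) and 1, Itgax, did not pass the test. In aged cells the same 7 rose (27.5% of all genes) and the same 1, Itgav, fell (26.9%). Vcam1 had too few counts for the test and is described on its own. The median log2 fold change of the 9 genes was 0.87 in young and 0.75 in aged cells, beside -0.01 and 4.7e-04 for all genes. Untreated and LPS-treated libraries did not overlap for 5 of the 9 genes in young cells, all higher (23.9% of all genes were apart in that direction), and for 7 of the 9 in aged cells, all higher (21%).

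Icam1, the ligand of the beta2 integrins (chr9:21015985-21028817, GRCm38), was at 71.1, 66, 66.6, 63.2 and 62.2 CPM in batches 1 to 5 of young untreated and at 664, 563, 513, 311 and 386 CPM in young LPS-treated cells. Every treated library was above every untreated library, and batch 1 was the highest and batch 4 the lowest of the treated. Icam1 rose 7.4-fold (log2 fold change 2.89 ± 0.19 SE, edgeR adjusted p = 6.1e-12). Aged cells held it at 53.6, 65, 68, 64.5 and 51.9 CPM without and 249, 339, 477, 299.5 and 231 CPM with LPS. The groups were again apart, with batch 3 the highest, and Icam1 rose 5.26-fold (log2 fold change 2.40 ± 0.19 SE, edgeR adjusted p = 2.3e-10). An annotated antisense transcript, Gm47079, shares 511 exonic bases with Icam1, but had 83 counts in all libraries together beside 62061 for Icam1.

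Itga5, the alpha chain of the fibronectin receptor (chr15:103344286-103366763), had the largest fold of the integrin chains tested here. It was at 121, 102, 121, 97.3 and 83.8 CPM in young untreated and 915, 875, 968, 717 and 728 CPM in young LPS-treated cells, a rise of 8-fold (log2 fold change 3.00 ± 0.13 SE, edgeR adjusted p = 4.9e-15). In aged cells it was at 69.8, 81.9, 110.4, 81.1 and 81.3 CPM without and 522, 533, 709, 525 and 513 CPM with LPS, a rise of 6.59-fold (log2 fold change 2.72 ± 0.13 SE, edgeR adjusted p = 4.4e-14). The groups did not overlap in either age, and among the treated aged libraries 4 lay within 513 to 533 CPM, with batch 3 above them.

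The promoters of Icam1 and Itga5, which had the largest rises of the 9 genes tested, and of Itgav, which fell, are shown for their sequence. They hold 250 bases before and 50 after the RefSeq start (GRCm38.p6), 5′ to 3′ on the strand of the gene, at chr9:21015690-21015989, plus strand, at chr15:103366742-103367041, minus strand and at chr2:83724147-83724446, plus strand. Capitals mark matches on either strand to any of 3 motifs, the kappaB pattern GGAAANNCC, the AP-1 pattern TGANTCA and the PU.1 core GAGGAA, none of which overlap in these windows.
Icam1: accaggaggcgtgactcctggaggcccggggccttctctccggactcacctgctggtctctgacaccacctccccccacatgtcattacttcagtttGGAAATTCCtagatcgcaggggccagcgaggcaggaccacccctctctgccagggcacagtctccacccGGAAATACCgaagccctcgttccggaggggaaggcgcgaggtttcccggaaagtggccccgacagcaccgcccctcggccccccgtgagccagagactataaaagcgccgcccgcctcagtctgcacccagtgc
Itga5: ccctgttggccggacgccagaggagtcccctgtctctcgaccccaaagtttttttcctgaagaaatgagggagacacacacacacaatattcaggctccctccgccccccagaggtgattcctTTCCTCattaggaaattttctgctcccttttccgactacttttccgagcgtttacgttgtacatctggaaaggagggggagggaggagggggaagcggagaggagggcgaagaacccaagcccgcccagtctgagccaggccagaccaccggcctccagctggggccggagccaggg
Itgav: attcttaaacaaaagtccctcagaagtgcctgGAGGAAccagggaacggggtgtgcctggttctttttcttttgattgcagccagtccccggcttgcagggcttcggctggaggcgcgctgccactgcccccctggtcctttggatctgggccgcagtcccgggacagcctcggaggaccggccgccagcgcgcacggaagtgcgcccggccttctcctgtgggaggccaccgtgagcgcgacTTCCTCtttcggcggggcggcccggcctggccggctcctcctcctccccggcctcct
The Icam1 window held 2 matches to GGAAANNCC, starting 153 and 84 bases before the start, and neither of the other patterns. Among 32851 promoters of this length, 5.82% held GGAAANNCC, 7.81% TGANTCA and 28.3% GAGGAA. The Itga5 window held 1 GAGGAA match on the opposite strand and neither of the other patterns. The Itgav window held 2 matches to GAGGAA and neither of the others. Such matches describe letters and are not shown to be sites. Windows were also found for Itga4, Itgb1, Itgax and Cd44, 7 of the 10 genes in all. Among those 4, GGAAANNCC matched only in Itgb1 and TGANTCA only in Itgax.

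Cd44, the receptor for hyaluronan, was at 305, 256, 269.7, 213 and 208 CPM in young untreated and 1012, 765, 738, 517 and 567 CPM in young LPS-treated cells. It rose 2.88-fold (log2 fold change 1.52 ± 0.19 SE, edgeR adjusted p = 2.4e-07), with the groups apart. The aged cells had 171, 234, 305, 227 and 192 CPM without and 404, 451, 741, 449.8 and 409.5 CPM with LPS. It rose 2.18-fold (log2 fold change 1.12 ± 0.19 SE, edgeR adjusted p = 2.3e-05), again without overlap.

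Itga4, the alpha chain of the VCAM1 receptor, was at 465, 558, 550.1, 577 and 507 CPM in young untreated and 1206, 1175, 1144, 936 and 962 CPM in young LPS-treated cells. The groups were apart and Itga4 rose 2.04-fold (log2 fold change 1.03 ± 0.09 SE, edgeR adjusted p = 5.1e-10). Its aged values were 491, 546, 401, 477 and 494 CPM without and 779, 949, 899, 892 and 769.7 CPM with LPS, a rise of 1.78-fold (log2 fold change 0.83 ± 0.09 SE, edgeR adjusted p = 2.8e-08). Its exons share 1124 bases with Cerkl on the opposite strand, which had 17 counts in all libraries.

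Itgb1, a beta chain that pairs with Itga4 and Itga5, varied little between the libraries of a group, by a coefficient of variation of at most 7.69%. It was at 497, 507, 505, 439 and 462 CPM in young untreated and 905, 959.7, 883, 800.2 and 869 CPM in young LPS-treated cells, and it rose 1.83-fold (log2 fold change 0.87 ± 0.06 SE, edgeR adjusted p = 8.1e-12). In aged cells it was at 423, 460.2, 510.0, 426 and 455 CPM without and 755, 736, 760.4, 685 and 735 CPM with LPS, a rise of 1.61-fold (log2 fold change 0.69 ± 0.06 SE, edgeR adjusted p = 8.3e-10). The groups were apart in both ages.

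Itgb2, the common beta chain of the leukocyte integrins, was at 103, 74.5, 71.5, 49.4 and 59.3 CPM in young untreated and 142, 119, 129, 102 and 116 CPM in young LPS-treated cells. The groups met at a single library, because untreated batch 1 lay just above treated batch 4, yet Itgb2 was higher after LPS in all 5 batches and rose 1.7-fold (log2 fold change 0.76 ± 0.16 SE, edgeR adjusted p = 2.3e-04). In aged cells it was at 44.6, 58.2, 86.8, 56.1 and 55.9 CPM without and 94.6, 100.3, 117, 92.8 and 104 CPM with LPS. Here the groups were apart, with a rise of 1.69-fold (log2 fold change 0.75 ± 0.16 SE, edgeR adjusted p = 3.9e-04).

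Itgal, the alpha chain of LFA-1, was at 126, 172, 162, 127 and 117 CPM in young untreated and 183, 263, 260.1, 177 and 165 CPM in young LPS-treated cells. Its young groups overlapped, with batches 2 and 3 high in both, and it was higher after LPS in 5 of 5 batches. It rose 1.49-fold (log2 fold change 0.58 ± 0.12 SE, edgeR adjusted p = 2.5e-04). The values of aged cells were 70.8, 77.4, 70.2, 76.7 and 73.2 CPM without and 99, 113, 99.8, 119 and 99.3 CPM with LPS. These groups were apart, with a rise of 1.44-fold (log2 fold change 0.52 ± 0.12 SE, edgeR adjusted p = 0.00108).

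Itgav, the alpha chain of vitronectin receptors, fell after LPS. It was at 377, 453, 448, 386 and 325 CPM in young untreated and 386, 289.9, 281, 177 and 190.4 CPM in young LPS-treated cells. In batch 1 the treated culture was not below the untreated one, and in the other 4 batches it was. The fall was 1.5-fold (log2 fold change -0.59 ± 0.18 SE, edgeR adjusted p = 0.00688). In aged cells Itgav was at 280.2, 412, 429.8, 347 and 322 CPM without and 166, 203, 299, 193 and 179.6 CPM with LPS, lower in 5 of 5 batches, and fell 1.72-fold (log2 fold change -0.78 ± 0.18 SE, edgeR adjusted p = 9.3e-04). The groups overlapped in both ages.

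Itgax, the alpha chain of CR4 and known as the dendritic cell marker CD11c, was at 122, 105, 132, 47.4 and 52.4 CPM in young untreated and 121, 97.4, 122, 40.5 and 49 CPM in young LPS-treated cells. In aged cells it was at 19.8, 57.5, 99.9, 53.6 and 32.7 CPM without and 16.8, 55.4, 96.5, 52.4 and 34.2 CPM with LPS. Cultures of an age differed several-fold in Itgax, and the treated culture of a batch lay close to the untreated one. No LPS effect passed the test (young log2 fold change -0.10 ± 0.42 SE, edgeR adjusted p = 0.85, and aged log2 fold change -0.05 ± 0.43 SE, edgeR adjusted p = 0.935). With a replicate block within each age, which pairs the untreated and the treated culture of an age and batch and was added after the data were seen, the young decrease of -0.11 ± 0.04 SE, edgeR adjusted p = 0.0255 was called, and the aged value was -0.05 ± 0.04 SE, edgeR adjusted p = 0.313 (with this block 37.1% and 31.8% of all genes were called lower in young and aged cells).

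**Figure D2:**
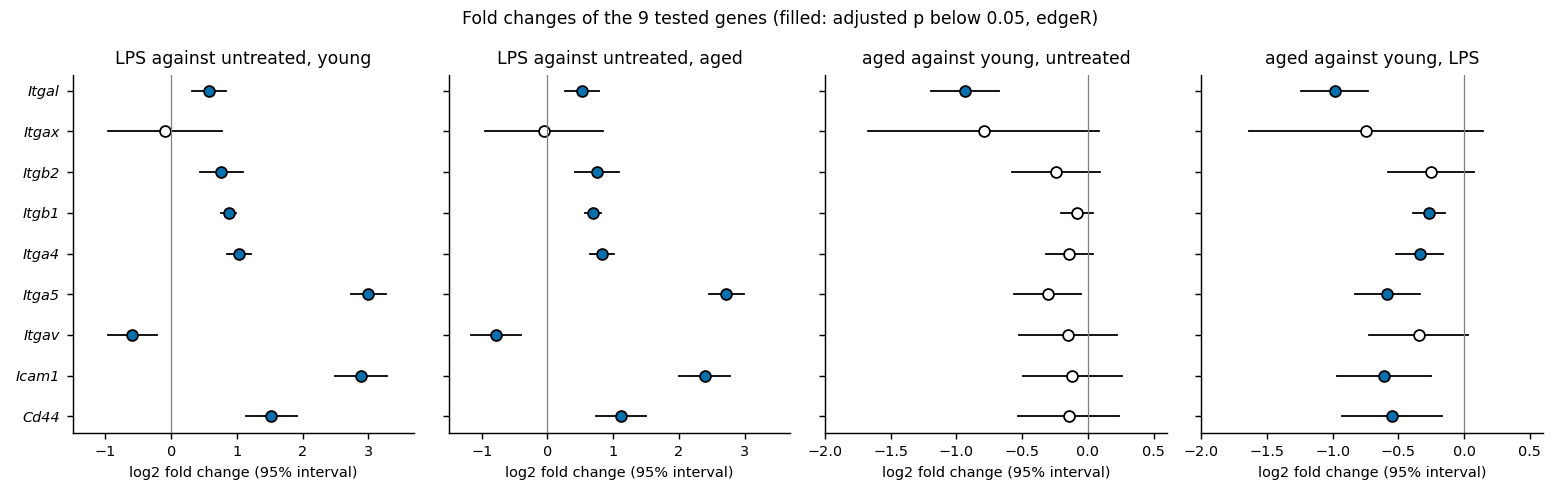
Log2 fold changes (horizontal axes, bars for 95% confidence intervals) of the 9 tested genes in 4 comparisons from edgeR, with filled points for an adjusted p below 0.05. In both LPS comparisons 7 genes lie above 0 and are filled and Itgav lies below 0 and is filled, and in both comparisons of age all 9 points lie below 0, of which 1 is filled without LPS and 6 with LPS.

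Vcam1, the ligand of the Itga4 and Itgb1 pair, had no count in any of the 10 untreated libraries. In young LPS-treated cells it had 21, 22, 29, 9 and 14 counts in batches 1 to 5, which is 2.07, 1.82, 2, 0.671 and 1.03 CPM. In aged LPS-treated cells it had 7, 1, 10, 2 and 10 counts, so that batches 2 and 4 were below the floor of 3. Summed over the group, the 95 counts in young cells were at least 38.3-fold above the floor of 3 counts over all 5 untreated libraries, and the 30 counts in aged cells at least 12-fold above theirs. Treated and untreated libraries differed in an exact two-sided permutation test in each age (p = 0.00794, the smallest that 5 against 5 allows, and 0.0119 after Benjamini-Hochberg adjustment over 3 comparisons). After LPS the pooled rate was 3.36-fold higher in young than in aged cells (exact 95% interval 2.21 to 5.25, for counting error only), with p = 0.0238 in the exact permutation test over libraries, also after adjustment. The ranges met between aged batch 5 and young batch 4. Vcam1 thus was detected after LPS only, at a level far under that of Icam1, whose lowest treated library had 231 CPM.

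How the alpha chains divide was described per length, as the share of each in the summed RPKM of its set. Among Itga4, Itga5 and Itgav, which have Itgb1 as a common partner, Itga5 held 22.1% ± 2.73 (SD, n = 5) in young and 20.2% ± 2.63 in aged untreated cells, and 62.6% ± 1.67 and 58.4% ± 2.29 after LPS. Itgav held 38.3% ± 1.94 and 39% ± 3.62 without LPS, and 8.88% ± 1.78 and 9.87% ± 1.15 with it. Treated and untreated libraries were apart in both shares and both ages. Itga4 held 39.6% ± 3.32 and 40.8% ± 5.63 without and 28.6% ± 1.07 and 31.8% ± 2.93 with LPS, where its aged groups overlapped. Among the partners of the beta2 chain, Itgal held 31.6% ± 5.93 in young untreated and 44% ± 6.94 in young LPS-treated cells, and 30.5% ± 10.5 and 40.2% ± 12.4 in aged cells, with overlap in both ages. Within pairs of an age and batch it was higher after LPS in 10 of 10, by 12.4 ± 2.77 percentage points in young and 9.68 ± 2.07 in aged cells (SD, n = 5). Itgam held 42.2% ± 2.15, 32.8% ± 4.36, 44.2% ± 5.36 and 37.1% ± 6.17 in the same order, lower after LPS in 10 of 10 pairs, with treated and untreated libraries apart in young and overlapping in aged cells. The fourth partner, Itgad, had at most 1 count in any library. Shares depend on the length used and on the chains in a set, and the set of Itga4, Itga5 and Itgav left out Itga6. Shares of a set are parts of the same sum, so that the share of Itga4 fell after LPS although its level rose. With the longest transcript in place of merged exons, Itga5 held 56.2% and Itgav 10.9% in young LPS-treated cells.

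**Figure D3:**
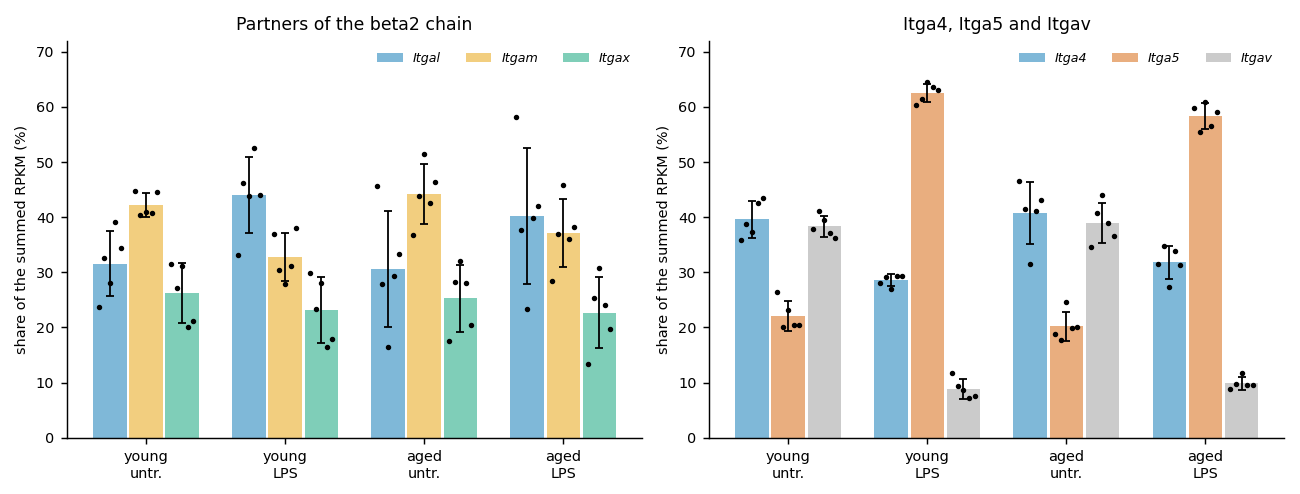
Share of each alpha chain in the summed RPKM of its set (vertical axis, percent), for the partners of the beta2 chain (left) and for Itga4, Itga5 and Itgav (right), as the mean of 5 libraries with the SD and the single libraries as points. After LPS, Itga5 takes the largest share on the right in every library of both ages, and on the left Itgam is apart between untreated and treated young cells, while the other groups overlap.

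How aged and young cells differed without LPS was the second question. The number of separate long-term cultures is not given. Time in culture and the history of a single long-term culture therefore cannot be told apart in either comparison of age. Of the 9 genes tested, 1 was called, and lower, in aged untreated cells (7.81% of all genes were called lower and 3.71% higher). It was Itgal, at 126, 172, 162, 127 and 117 CPM in young and 70.8, 77.4, 70.2, 76.7 and 73.2 CPM in aged cells. All aged libraries were below all young ones (6.63% of all genes were apart in this direction), the aged libraries lay closer together than the young, and Itgal was 1.91-fold lower (log2 fold change -0.93 ± 0.12 SE, edgeR adjusted p = 3.8e-05). All 9 fold changes were negative, with a median of -0.15 beside -0.01 for all genes, but 8 did not pass the test. Itga5 was lower in aged cells in all 5 batches, yet its groups overlapped (log2 fold change -0.31 ± 0.12 SE, edgeR adjusted p = 0.117). With the batch as a block it was called (-0.31 ± 0.08 SE, edgeR adjusted p = 0.0117, where 17.2% of all genes were called in either direction), and Itgal was called as well. Itgax was lower by 0.79 in its point estimate, with a 95% interval from -1.67 to 0.08 that covers no change. For Icam1, Cd44, Itga4, Itgb1, Itgb2 and Itgav the interval reached down to -0.58 and up to 0.26 at the widest.

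The 2 ages were then compared under LPS. Of the 9 genes, 6 were lower in aged than in young treated cells (15% of all genes were called lower), and none was higher (14%). They were Itgal, Icam1, Itga5, Cd44, Itga4 and Itgb1. The median of the 9 was -0.55 beside 0.01 for all genes. Itgal was 1.98-fold lower (log2 fold change -0.98 ± 0.12 SE, edgeR adjusted p = 3.8e-06), Itga5 1.5-fold (log2 fold change -0.59 ± 0.12 SE, edgeR adjusted p = 7.3e-04) and Itgb1 1.2-fold (log2 fold change -0.27 ± 0.06 SE, edgeR adjusted p = 0.0012). These were the 3 genes whose aged and young treated libraries did not overlap (8.16% of all genes were apart and lower). Itga4 was 1.26-fold lower (log2 fold change -0.34 ± 0.09 SE, edgeR adjusted p = 0.00464) and lower in all 5 batches.

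Icam1 was 1.53-fold lower (log2 fold change -0.61 ± 0.17 SE, edgeR adjusted p = 0.0108) and Cd44 1.46-fold (log2 fold change -0.55 ± 0.18 SE, edgeR adjusted p = 0.0274), and in both the groups overlapped. Aged batches 2 and 3 lay above the lowest young library for Icam1, and aged batch 3 did for Cd44. Within batches the difference of Icam1 ran from -1.41 in the batch where it was largest to -0.05, and Cd44 was lower in 4 of 5 batches. Both calls depended on which libraries were kept. With the batch as a block both were called, where 33.4% of all genes were called in either direction. The values were -0.61 ± 0.15 SE, edgeR adjusted p = 0.00378 for Icam1 and -0.56 ± 0.15 SE, edgeR adjusted p = 0.00672 for Cd44. Without batch 1 the log2 fold change of Icam1 was -0.39 (edgeR adjusted p = 0.115) and that of Cd44 -0.33 (adjusted p = 0.177), and without batch 2 the adjusted p was 0.0744 and 0.155. Without batch 5 that of Cd44 was 0.0535. Without batch 3 the log2 fold changes of Icam1 and Cd44 were -0.78 (adjusted p = 0.00227) and -0.74 (adjusted p = 0.00253). Of all genes 27.8%, 16.8%, 26% and 24.4% were called without batches 1, 2, 3 and 5, beside 29.0% in the main fit. Itgav, Itgax and Itgb2 did not pass the test, with log2 fold changes of -0.34, -0.75 and -0.25.

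The summed level of the 15 microglia and macrophage markers, of which Itgam is one, had lower medians in aged cells, with ranges that overlapped in both treatments. It was 3201 to 4593 CPM (median 3838) in young and 2719 to 3946 CPM (median 2947) in aged untreated cells, and 3725 to 5211 CPM (median 4422) in young and 3158 to 4494 CPM (median 3411) in aged LPS-treated cells. By group mean Tmem119 was not lower in aged cells, Sall1 had no count, and all other markers were lower in both treatments. The difference of the marker sum between ages, and its part in the lower values of aged cells, were not tested.

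Whether the LPS response itself differed between ages was tested as an interaction, the log2 response of aged minus that of young cells. It was negative for 8 of the 9 genes, but none was called by edgeR (6.39% of all genes were called in either direction), and none by DESeq2. At an unadjusted p below 0.05 it held for 1 gene, Itgb1, at -0.18 ± 0.08 SE (edgeR adjusted p = 0.213). With the batch as a block across all groups none was called (9.03% of all genes in either direction). With the replicate block within each age, 4 of the 9 had a smaller rise in aged cells (6.8% of all genes were called lower and 10.1% higher). The differences were -0.28 ± 0.06 SE, edgeR adjusted p = 0.00339 for Itga5, -0.39 ± 0.08 SE, edgeR adjusted p = 0.00307 for Cd44, -0.18 ± 0.04 SE, edgeR adjusted p = 0.0114 for Itgb1 and -0.48 ± 0.15 SE, edgeR adjusted p = 0.0391 for Icam1.

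The responses of single cultures show the size of these differences. Itga5 rose by 2.92, 3.10, 3.00, 2.88 and 3.12 log2 CPM in batches 1 to 5 of young cells and by 2.90, 2.70, 2.68, 2.69 and 2.65 in aged cells. The lowest young response lay just under the highest aged one, and the aged response was the smaller one in all 5 batches. Cd44 rose by 1.73, 1.58, 1.45, 1.28 and 1.45 in young and 1.24, 0.95, 1.28, 0.99 and 1.09 in aged cells, smaller in all 5 batches. Itgb1 rose by 0.86, 0.92, 0.80, 0.87 and 0.91 in young and 0.83, 0.68, 0.58, 0.68 and 0.69 in aged cells. Icam1 rose by 3.22, 3.09, 2.94, 2.30 and 2.63 in young and 2.21, 2.38, 2.81, 2.21 and 2.15 in aged cells, where batch 3 of the aged cells responded like the young ones. In Itgb1 and Icam1, too, the aged response was the smaller one in every batch. Itgal rose by 0.54, 0.62, 0.68, 0.48 and 0.50 in young and 0.48, 0.54, 0.51, 0.64 and 0.44 in aged cells. Its interaction with the block was -0.04 ± 0.05 SE, edgeR adjusted p = 0.641, with a 95% interval from -0.15 to 0.07. For Vcam1 no interaction can be estimated, since both untreated groups are at 0.

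**Figure D4:**
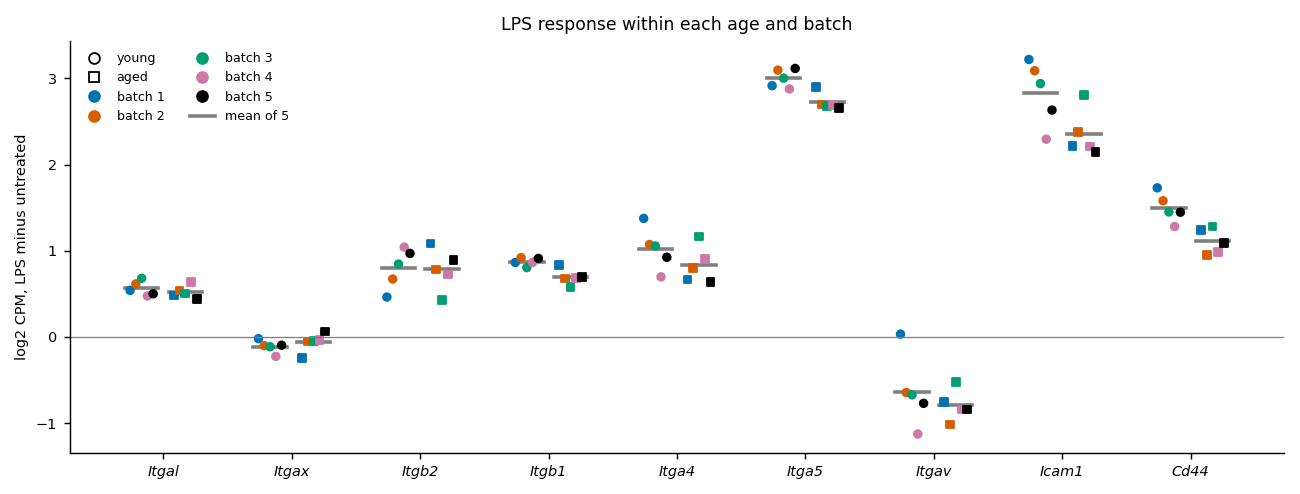
Difference in log2 CPM between the LPS-treated and the untreated culture of the same age and batch (vertical axis) for the 9 tested genes, with circles for young and squares for aged cells, colours for the 5 batches and grey bars for the mean of 5. The aged means of Itga5, Icam1, Cd44, Itgb1, Itga4 and Itgav are below the young means, and those of Itgal, Itgb2 and Itgax lie close together. Itgav of young batch 1 is the only young value of that gene near 0.

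Spread between cultures of a group was shared by several of the genes. In aged cells batch 3 was the highest of 5 for 7 of the 9 genes without LPS and for 7 of the 9 with it, and batch 1 was the lowest for 6 and 4 of them. In young LPS-treated cells batch 4 was the lowest for 8 of the 9. The macrophage marker sum had the same extremes, at 3946 CPM in aged untreated batch 3 against 2719 in batch 1, and 3725 CPM in young LPS-treated batch 4. Its part in this spread was not tested. Of the 9 genes tested Itgax varied the most, with a coefficient of variation of 43% to 58.3% within groups, beside 4.07% to 7.69% for Itgb1. Its deviation from the group mean recurred in the treated culture of the same age and batch. It was -1.20 without and -1.38 with LPS in aged batch 1, 1.12 and 1.14 in aged batch 3, and -0.82 and -0.94 in young batch 4 (log2 CPM). Between the ages the same batch number did not mean the same side, since batch 1 was above the mean in young cells, at 0.54.

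Genes with the most similar level to each of the 9 were found by Pearson's r of log2 CPM over the 20 libraries. These libraries share groups and batches, so that r describes this set and is no test. Itgax was nearest to Lyz2 (r = 0.983), Fcna (r = 0.963) and Itgam (r = 0.955), which are the macrophage lysozyme, a ficolin and another beta2 partner. Itga5 was nearest to Fam20c (r = 0.997), Tnfrsf8 (r = 0.997) and Tnf (r = 0.997). Icam1 was nearest to Sdc4 (r = 0.994), Tpst1 (r = 0.992) and Hif1a (r = 0.991). Itga4 was nearest to Rel (r = 0.981), Junb (r = 0.979) and Tlr2 (r = 0.978), of which Rel is an NF-kappaB subunit. Itgb1 was nearest to B3gnt2 (r = 0.993), P2ry10b (r = 0.991) and Rtn4 (r = 0.991). Itgal was nearest to Kdm7a (r = 0.931), Il10ra (r = 0.931) and Sash1 (r = 0.923), Itgb2 to Ctsz (r = 0.974), Degs1 (r = 0.973) and Slc24a5 (r = 0.966) and Cd44 to Tax1bp1 (r = 0.98), Faf2 (r = 0.979) and Ctsz (r = 0.978). The nearest to Itgav, Mtus1 (r = 0.963), Naaa (r = 0.945) and Adgrl2 (r = 0.933), had lower values of r than those of Itga5 or Icam1.

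Of 19 other integrin subunits, 7 had enough counts for the test. After LPS 1 of them was called higher and 2 lower in each age, beside 31.2% higher and 33.5% lower of all genes in young and 27.5% and 26.9% in aged cells. With the replicate block within each age 2 were called higher and 3 lower in each age (35.0% higher and 37.1% lower of all genes in young, 32.3% and 31.8% in aged cells). The 2 lower ones without the block were Itga6, the laminin receptor chain, which fell from 180.4 ± 9.74 to 48.4 ± 5.89 CPM in young (log2 fold change -1.90 ± 0.08 SE, edgeR adjusted p = 2.3e-15) and from 117 ± 6.88 to 36.6 ± 4.38 CPM in aged cells (log2 fold change -1.68 ± 0.08 SE, edgeR adjusted p = 4.1e-14), and Itgb5, a partner of Itgav. Itgb5 fell from 175 ± 28.4 to 66.2 ± 12.2 CPM in young (log2 fold change -1.41 ± 0.14 SE, edgeR adjusted p = 6.9e-09) and from 117 ± 19 to 51.6 ± 10.2 CPM in aged cells (log2 fold change -1.18 ± 0.14 SE, edgeR adjusted p = 2.1e-07). Itgav and its partner Itgb5 thus both fell in both ages. Itgb3, another partner of Itgav, had at most 4 counts in any library. The one that rose was Itga7, from 8.03 ± 0.804 to 13.3 ± 1.74 CPM in young cells (log2 fold change 0.73 ± 0.11 SE, edgeR adjusted p = 4.6e-06). In aged untreated cells Itga6 (log2 fold change -0.62 ± 0.07 SE, edgeR adjusted p = 7.9e-06) and Itgb5 (log2 fold change -0.58 ± 0.13 SE, edgeR adjusted p = 0.00691) were lower than in young ones.

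Itgam, the alpha chain of CR3 and the Mac-1 antigen, was at 181, 163, 181, 101 and 115 CPM in young and 43.6, 93.4, 168, 84.9 and 77.8 CPM in aged untreated cells. It overlapped between ages and did not pass the test (log2 fold change -0.66 ± 0.30 SE, edgeR adjusted p = 0.166), nor did its LPS effect in young (log2 fold change -0.30 ± 0.30 SE, edgeR adjusted p = 0.394) or aged cells (log2 fold change -0.15 ± 0.30 SE, edgeR adjusted p = 0.713). Itgb7, the other partner of Itga4, was at 15.9 ± 7.73 CPM in young untreated and 25.1 ± 10.5 CPM in young LPS-treated cells, and did not pass the test either (log2 fold change 0.65 ± 0.41 SE, edgeR adjusted p = 0.171). With the replicate block within each age both were called, Itgam lower after LPS in young (-0.29 ± 0.05 SE, edgeR adjusted p = 3.0e-05) and in aged cells (-0.15 ± 0.05 SE, edgeR adjusted p = 0.0161), and Itgb7 higher in young (0.68 ± 0.09 SE, edgeR adjusted p = 2.0e-06) and in aged cells (0.75 ± 0.09 SE, edgeR adjusted p = 1.1e-06).

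Of 30 other adhesion receptors, 17 were tested. After LPS 8 were called higher and 4 lower in young cells, and 7 higher and 2 lower in aged cells (31.2% and 33.5% of all genes in young, 27.5% and 26.9% in aged cells). Sdc4, a heparan sulfate syndecan that acts beside Itga5 in adhesion to fibronectin, rose from 67.6 ± 4.33 to 543 ± 165 CPM in young (log2 fold change 3.01 ± 0.18 SE, edgeR adjusted p = 1.7e-12) and from 68.7 ± 5.5 to 295 ± 77.8 CPM in aged cells (log2 fold change 2.10 ± 0.18 SE, edgeR adjusted p = 9.4e-10). It was the 1 gene of the list whose response differed between ages without a block (log2 fold change -0.90 ± 0.24 SE, edgeR adjusted p = 0.0272, where 6.39% of all genes were called). With the batch as a block across all groups 2 were called lower (3.41% of all genes). With the replicate block within each age 1 was called higher and 4 lower (10.1% and 6.8% of all genes). The tetraspanin Cd82 rose and the tetraspanin Cd81 fell in both ages (in young cells log2 fold changes of 1.43 and -1.51). Under LPS 7 of the 17 were lower in aged than in young cells and none was higher (15% and 14% of all genes), among them Sdc4, Sdc3 and Cd47, the integrin-associated protein (log2 fold change -0.66 ± 0.08 SE, edgeR adjusted p = 3.7e-06). Icam2, a second ligand of LFA-1, fell in young cells (log2 fold change -0.40 ± 0.11 SE, edgeR adjusted p = 0.0031), and did not pass the test in aged cells (log2 fold change -0.22 ± 0.11 SE, edgeR adjusted p = 0.0855), where it was called with the replicate block within each age (-0.22 ± 0.09 SE, edgeR adjusted p = 0.0318). Icam5 did not pass the test in any comparison, and Icam4 had at most 5 counts in a library.

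Of 47 genes of integrin activation and the adhesion complex, 41 were tested, and 20 were called higher and 13 lower after LPS in each age (31.2% and 33.5% of all genes in young, 27.5% and 26.9% in aged cells), so that the share called lower was near that of all genes. The kinases Src and Syk were among those that rose. Src rose from 6.86 ± 1.82 to 124 ± 23.2 CPM in young (log2 fold change 4.17 ± 0.20 SE, edgeR adjusted p = 3.0e-14) and from 3.07 ± 0.667 to 43.5 ± 13.8 CPM in aged cells (log2 fold change 3.81 ± 0.22 SE, edgeR adjusted p = 1.7e-12). Syk, which acts downstream of beta2 integrins, rose from 127 ± 12.6 to 633 ± 75.1 CPM in young and from 106 ± 4.31 to 426 ± 62 CPM in aged cells. Rasgrp3, an activator of Rap1, fell from 338 ± 48 to 52.4 ± 7.06 CPM in young cells (log2 fold change -2.68 ± 0.10 SE, edgeR adjusted p = 3.4e-16). In aged untreated cells 11 of the 41 were lower and 2 higher (7.81% and 3.71% of all genes). Src was 2.22-fold lower (log2 fold change -1.15 ± 0.26 SE, edgeR adjusted p = 0.00567) and the adaptor Fyb 1.57-fold (log2 fold change -0.65 ± 0.07 SE, edgeR adjusted p = 1.0e-06), and the adaptor Bcar1 was 2.04-fold higher (log2 fold change 1.03 ± 0.20 SE, edgeR adjusted p = 0.00206). Under LPS 18 were lower and 5 higher in aged cells (15% and 14% of all genes), with Src again among the lower (log2 fold change -1.51 ± 0.17 SE, edgeR adjusted p = 1.0e-06). For the difference of the LPS responses 1 was called, and higher (4.12% of all genes were called higher and 2.27% lower). With the batch as a block across all groups 3 were called higher and 3 lower (5.63% and 3.41% of all genes). With the replicate block within each age 6 were called higher and 6 lower (10.1% and 6.8% of all genes).

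Of 34 matched genes of matrix and other ligands, 10 were tested. Fibronectin, the ligand of Itga5 and Itgb1, had at most 3 counts of Fn1 in any library and vitronectin none, so that the transcripts of both were at or near the floor in these cells. Spp1, the osteopontin gene and a ligand of Itgav and Itga4, was at 2355 ± 474 CPM in young and 3442 ± 177 CPM in aged untreated cells and was higher in the aged (log2 fold change 0.55 ± 0.11 SE, edgeR adjusted p = 0.00187). It rose with LPS in young cells to 3132 ± 473 CPM (log2 fold change 0.41 ± 0.11 SE, edgeR adjusted p = 0.00191) and did not pass the test in aged cells (log2 fold change 0.07 ± 0.11 SE, edgeR adjusted p = 0.595). The laminin chain Lamc1 rose in both ages, 2.25-fold in young (log2 fold change 1.17 ± 0.08 SE, edgeR adjusted p = 2.0e-11) and 2.07-fold in aged cells (log2 fold change 1.05 ± 0.08 SE, edgeR adjusted p = 2.4e-10).

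Of 21 matched partners of Cd44 and hyaluronan, 14 were tested, and 9 rose and 3 fell with LPS in young and 8 rose and 2 fell in aged cells (31.2% and 33.5% of all genes in young, 27.5% and 26.9% in aged cells were called higher and lower). The linkers of Cd44 to actin were among them. Ezr (ezrin) rose from 22.8 ± 2.66 to 106 ± 6.79 CPM in young (log2 fold change 2.22 ± 0.06 SE, edgeR adjusted p = 9.4e-18) and from 36.6 ± 1.22 to 119 ± 4.13 CPM in aged cells (log2 fold change 1.70 ± 0.06 SE, edgeR adjusted p = 5.9e-16), and Msn (moesin) from 402 ± 11.1 to 980.0 ± 27.5 and from 397 ± 7.49 to 841 ± 32.7 CPM. Cemip2, a hyaluronidase of the cell surface, rose 4.7-fold in young and 3.42-fold in aged cells. These 3 were also the members of the list called with a smaller response in aged cells (Ezr log2 fold change -0.52 ± 0.09 SE, edgeR adjusted p = 1.0e-03, Cemip2 log2 fold change -0.46 ± 0.13 SE, edgeR adjusted p = 0.0328, Msn log2 fold change -0.20 ± 0.05 SE, edgeR adjusted p = 0.0237). Of all genes 2.27% were called lower in this comparison. Ezr was already higher in aged than in young untreated cells (log2 fold change 0.68 ± 0.07 SE, edgeR adjusted p = 4.1e-07), whereas the scavenger receptor Stab1 was lower (log2 fold change -0.45 ± 0.12 SE, edgeR adjusted p = 0.0204).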

How the data were processed

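BV-2 cultures were labelled young or aged, untreated or LPS-treated, with 5 libraries a group. The authors made stranded poly(A) libraries, aligned paired reads to GRCm38 with STAR 2.6.1d, counted them per Ensembl gene with featureCounts 1.5.1, and deposited the counts without normalization. The featureCounts settings for strand, overlaps and multiple alignments are not given in the sources used here. Symbols and lengths came from GENCODE M21 (55227 of 55487 rows matched), promoters from RefSeq (GRCm38.p6).

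Counts were tested with edgeR 4.0.16 (limma 3.58.1, R 4.3.3): quasi-likelihood F-test, TMM, filterByExpr (12799 genes kept), group as the only factor, all 20 libraries in a single fit, and Benjamini-Hochberg adjustment over all genes tested with a threshold of 0.05. The study's own comparisons used DESeq2, which was an alternative here (DESeq2 1.42.0). Log2 CPM used a prior count of 2. RPKM used merged exon lengths. Vcam1 did not pass filterByExpr and was tested by an exact permutation test of CPM (scipy 1.17.1). Groups are called apart when their CPM ranges do not meet. The fits were tested on simulated counts with known changes.

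The batch number of the labels is the replicate number, so the numbers pair the cultures. Deviations from group means correlated across genes by 0.268 on average between the untreated and treated culture of an age and number (lowest of 10 pairs 0.122), and by 0.077 between ages of the same treatment (lowest -0.214). Fits with the number as a block, for all groups or within each age, are given where they change a call of the 10 genes, of another gene named as not passing the test, or move a list's printed count beyond 1.5 times.

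The genes and lists were chosen with earlier results of these data known. Besides the 10 genes, the text names from each other list up to 3 genes per direction and comparison with the largest change among those called whose mean reached 1 log2 CPM, the integrin partners Itgam, Itgad, Itgb3, Itgb5 and Itgb7, the ligands Icam2, Icam4, Icam5, Fn1, Spp1 and Vtn, and the 3 genes most alike to each of the 9 tested. Cyr61 and Tmem2 of the lists matched no row under these symbols, which does not show that the genes are absent. A gene that this rule would name is not reported here. Replicate pairs within a group differed by more than counting noise (chi-square per degree of freedom of 2.31 to 24.4 over 40 pairs), so no library was taken for a resequencing of another. This cannot tell separate cultures from separate RNA preparations of the same culture. Libraries were counted as replicates because the study calls them independent. Intervals and floors for single counts cover counting error only (95%).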

Additional observations from a re-analysis of the deposited data

Results flagged for a closer look

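Among 38 sets of 5 libraries (a gene in a group), 3 held a library far from the others by Dixon's test, where about 1 in 20 stands out by chance. All 3 were aged LPS-treated batch 3, with Cd44 at 741 CPM, Itga5 at 709 CPM and Itgav at 299 CPM, each the highest of its group. The same culture had the highest macrophage marker sum of its group (4494 CPM, beside 3158 to 3434 CPM in the others), whose part in these values was not tested.

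The LPS response differed between aged and young cells in the fit with a replicate block within each age, which was added after the data were seen, for Itga5 by -0.28, Itgb1 by -0.18, Icam1 by -0.48 and Cd44 by -0.39 on the log2 scale (edgeR adjusted p from 0.0031 to 0.0391). Without that block none of the 4 was called.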

How the results depend on the processing

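The count of genes called moved beyond 1.5 times its value in 2 comparisons. In aged against young untreated cells it was 2 in place of 1 with the replicate block and without replicate 3 (Itga5 was added in both). Of all genes 17.2% and 8.86% were called in these 2 fits, beside 11.5% in the main fit. For the difference of the LPS responses it was 4 in place of 0 with the replicate block within each age (16.9% of all genes were called, beside 6.39%). With each replicate left out in turn the counts ran from 1 to 2 and from 0 to 0 in these 2 comparisons, from 8 to 9 for LPS in young and in aged cells, and from 4 to 7 for aged against young under LPS. The share of all genes called moved as well. It ran from 4.27% to 9.31% and from 1.47% to 5.43% in the first 2. For LPS it ran from 58.5% to 62.5% in young and from 48.1% to 51.1% in aged cells. For aged against young under LPS it ran from 16.8% to 27.8%. The highest counts include Vcam1, which passed the filter without replicate 4. Vcam1 was also called in both LPS comparisons and between ages under LPS with no filter (edgeR adjusted p from 1.9e-09 to 0.00223) and by DESeq2. Icam1 and Cd44 under LPS missed the threshold with only the groups compared (edgeR adjusted p of 0.0572 and 0.0565) and at a threshold of 0.01. The replicate block changed no other call of the 10 genes. Signs changed for log2 values that no fit called. With each replicate left out, aged against young without LPS ran from -0.41 to 0.013 for Itgb2 and from -0.25 to 0.016 for Cd44, and the difference of the LPS responses from -0.18 to 0.12 for Itgb2 and from -0.31 to 0.0014 for Itgav. With library sizes alone that difference was 0.049 for Itgb2 and 0.011 for Itgal. The causes of these changes were not tested. Library sizes alone moved the median of all genes to -0.23 for LPS in young and -0.16 in aged cells, with 18.8% of all genes then called higher and 50% lower in young cells, 17% and 42.8% in aged cells, and the 7 rises and 1 fall among the 9 genes held in both. Fold changes of the report are relative to the TMM scale. Low depth limits Vcam1, Itgb3, Itgad and Fn1, for which changes below the floor of 3 counts were not detectable.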
